A study of Mus musculus with 4 samples.

Results

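The 7 genes of the BCL-2 family that hold back cell death were followed in sorted mouse B cells and plasma cells: Bcl2, Bcl2l1, Bcl2l2 and the Bcl2a1 copies Bcl2a1a, Bcl2a1b, Bcl2a1c and Bcl2a1d. They were found by the NCBI gene number in the probe identifiers, which gave 10 probes for the 7 genes, of 46120 probes on the array and of 8137 genes with a named probe. Bcl2, Bcl2l1 and Bcl2l2 had 2 probes each, and each Bcl2a1 copy had 1. RNA of 4 sorted cell samples of C57BL/6 mice, the plasma cells from spleen, was hybridised to 4 Illumina arrays, 1 array a sample. All 4 samples, naive cells included, carried the reporter genotype labelled prmd1-gfp, a green fluorescent protein reporter of Blimp1, which drives the differentiation of plasma cells. The naive group held B220+ IgD+ follicular B cells (1 array). Plasma cells were sorted as CD138+ and divided by the reporter into a Blimp1 high group (Blimp1-hi, 1 array) and a Blimp1 intermediate group (Blimp1-int, 2 arrays), from pools of 5 to 10 animals. None of the samples was cultured or treated, and the labels give no age of the animals.

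BCL-2 family proteins decide whether the outer membrane of the mitochondrion is opened by BAX and BAK, the step that commits a cell to apoptosis. BCL-2, BCL-XL (gene Bcl2l1), BCL-W (Bcl2l2), MCL-1 and A1 (the Bcl2a1 genes) bind and hold back BAX, BAK and the BH3-only proteins that activate them. Which of these proteins a B cell relies on shifts as it matures, and long-lived plasma cells are known to depend on MCL-1, downstream of the receptor BCMA. The mouse carries several near-identical copies of the A1 gene where the human genome has a single gene, BCL2A1. Mcl1 has no named probe among those used and was not analysed here.

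The A1 copies are shown first because they gave the largest differences among the members and because a reader needs to see how alike they are. The 250 bases before the annotated transcription start of each copy are printed below 5′ to 3′, from RefSeq on GRCm38.p6, with the letters GAGGAAGT in capitals. These letters hold the core bound by the Ets factors PU.1 and Spi-B.
Bcl2a1a, chr9:88956670-88956919, plus strand: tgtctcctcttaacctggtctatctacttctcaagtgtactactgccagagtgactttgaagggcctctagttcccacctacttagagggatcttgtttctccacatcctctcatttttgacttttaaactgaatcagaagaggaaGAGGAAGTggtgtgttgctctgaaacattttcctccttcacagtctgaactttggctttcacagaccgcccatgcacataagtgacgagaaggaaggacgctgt
Bcl2a1b, chr9:89199023-89199272, plus strand: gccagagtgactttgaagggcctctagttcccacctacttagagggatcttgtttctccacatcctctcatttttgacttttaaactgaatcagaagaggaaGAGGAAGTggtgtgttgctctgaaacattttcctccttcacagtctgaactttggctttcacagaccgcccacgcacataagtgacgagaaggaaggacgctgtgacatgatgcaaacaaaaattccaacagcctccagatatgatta
Bcl2a1c, chr9:114329885-114330134, plus strand: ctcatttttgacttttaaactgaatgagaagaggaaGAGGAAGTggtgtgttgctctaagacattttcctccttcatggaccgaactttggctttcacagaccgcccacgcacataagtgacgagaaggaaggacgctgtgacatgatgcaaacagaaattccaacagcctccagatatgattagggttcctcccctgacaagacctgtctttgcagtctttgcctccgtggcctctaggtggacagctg
Bcl2a1d, chr9:88731851-88732100, minus strand: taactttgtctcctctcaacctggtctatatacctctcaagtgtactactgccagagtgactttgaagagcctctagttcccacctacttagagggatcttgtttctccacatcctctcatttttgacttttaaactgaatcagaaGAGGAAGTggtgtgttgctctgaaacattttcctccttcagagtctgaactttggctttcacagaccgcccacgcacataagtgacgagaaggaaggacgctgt
All 4 copies held GAGGAAGT once, on the strand of the gene. It began 104 bases before the annotated start in Bcl2a1a and Bcl2a1d, 148 in Bcl2a1b and 214 in Bcl2a1c, whose annotated starts lie further downstream in the shared sequence. Of 32851 annotated promoters of the same length, 2.44% held these letters on either strand. A search for GGNNTTTCC, part of an NF-kB motif, found no match in the 4 windows on either strand, against 4.93% of all promoters. Both motifs were chosen with the sequences in view, so the shares over all promoters give the matches no weight. The 4 windows share most of their sequence and are not 4 separate observations. A match is a description of letters, not of a binding site.

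In local alignments of the 300-base windows that also take in the first 50 bases of the transcript, Bcl2a1a and Bcl2a1b were identical in 254 of 256 aligned columns (99.2%). Bcl2a1a and Bcl2a1d, aligned over 300 columns, were 96.0% identical, and Bcl2a1b and Bcl2a1d 96.5% over 256. Bcl2a1c was the most distant copy, with 93.2% identity to Bcl2a1d over 190 columns and 95.8% to Bcl2a1a. The sequences of the array probes were not used here, so how many of the copies each Bcl2a1 probe can bind was not determined, and the values below belong to a probe and only by its number to a copy.

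A probe was taken as measured on an array where its value exceeded the background level of that array. This level was the mean plus 3 standard deviations of 61 probes against foreign, non-mouse sequences and lay between 8.65 and 8.68. Of the 10 member probes 6 exceeded it on at least 1 array and were tested, which covers 5 of the 7 genes. Bcl2l1 and Bcl2a1c had no probe above background on any array. Values are the deposited ones on a log2 scale, where a difference of 1 is 2-fold if the scale is a plain log2. limma was fitted across 9005 probes, and p-values were adjusted over all of them by the Benjamini-Hochberg method. A probe is called higher or lower where its adjusted p was under 0.05 and its difference at least 1, and probes that passed the adjusted p alone are given as such. The naive and Blimp1-hi groups have 1 array each, so that group and array cannot be told apart, and their spread was assumed to equal that of the Blimp1-int pair. Whether both Blimp1-int arrays hold RNA of different animals is not stated in the labels, so the p-values reflect the distance of that pair alone, which may be technical. For each probe limma draws this distance strongly toward that of all tested probes. In sorted bulk samples fewer cells that express a gene and less RNA per cell cannot be told apart.

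**Figure D1:**
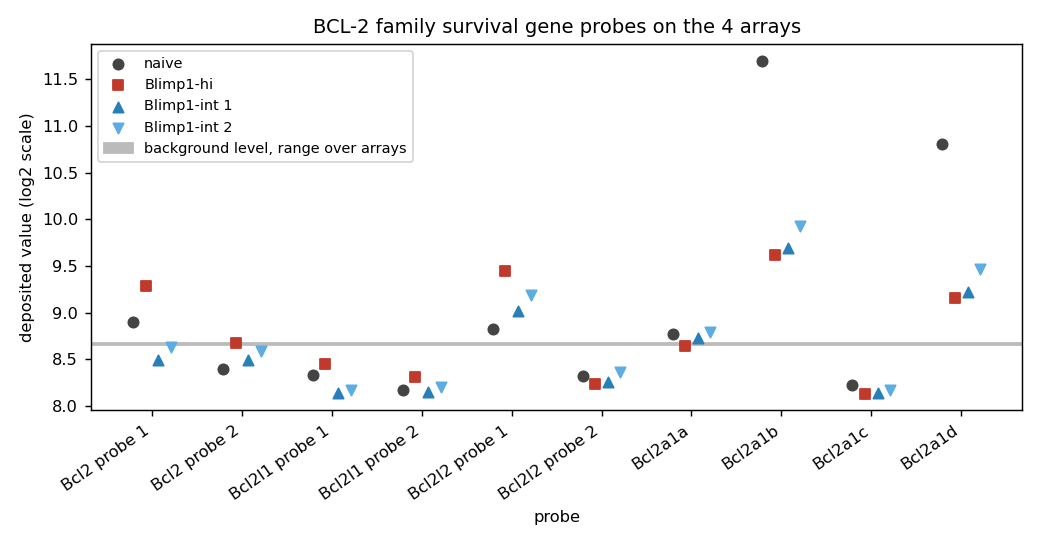
Deposited values (log2 scale, y axis) of the 10 probes of the 7 survival genes (x axis) on the naive, Blimp1-hi and both Blimp1-int arrays, 1 point an array; the grey band is the background level over the arrays, and probe 1 of a gene is the brighter one. Bcl2a1b and Bcl2a1d stand far above the band in naive cells (11.70 and 10.81), while the Bcl2l1 and Bcl2a1c points lie below it on all 4 arrays.

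Marker genes were read as a check of the sort. All 9 tested plasma cell markers, of 13 listed, were called higher in both plasma cell groups than in naive cells, among them Sdc1, which encodes CD138, and Xbp1. Of 17 naive B cell markers 8 were tested, and 6 were called lower in Blimp1-hi and 7 in Blimp1-int. A probe for the constant region of IgD, on which the naive cells were sorted, stayed below background on all 4 arrays, the naive one included (8.51). A probe for the enhanced green fluorescent protein read 8.29 in naive cells, 11.23 on the Blimp1-hi array, and 10.55 and 10.82 on the Blimp1-int arrays. Another green fluorescent protein probe was below background throughout, at 8.51 in naive cells, 8.36 in Blimp1-hi, and 8.32 and 8.28 in Blimp1-int. The source field of the plasma cell samples names follicular B cells, against their titles and sort, which the grouping follows. Granulocytes and macrophages also express A1, so their markers were read beside it. Of 18 granulocyte markers 9 had a named probe and none exceeded background on any array. Of 19 macrophage and monocyte markers 8 had a named probe and 2 exceeded background, Apoe and Vcam1, while Csf1r, Cd68, Lyz2, C1qa, C1qb and Mertk did not. The mean log2 value over the 8 macrophage genes was 8.46 in naive cells, 8.56 on the Blimp1-hi array, and 8.44 and 8.60 on the Blimp1-int arrays.

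A pair of A1 probes was much lower in plasma cells than in naive B cells. Bcl2a1b read 11.70 on the naive array, 9.62 in Blimp1-hi, and 9.69 and 9.93 in Blimp1-int (9.81 ± 0.17, SD, n = 2). Every plasma cell value lay well below the naive one, and the gap was far larger than the distance between the Blimp1-int replicates. The difference was -2.08 in Blimp1-hi (SE 0.14, 4.24-fold lower, limma adjusted p = 0.000132) and -1.89 in Blimp1-int (SE 0.12, 3.71-fold lower, adjusted p = 9.1e-05). Bcl2a1d showed the same order at its own scale, with 10.81 in naive cells, 9.16 on the Blimp1-hi array, and 9.22 and 9.47 on the Blimp1-int arrays (9.35 ± 0.18, SD, n = 2). It fell by 1.65 in Blimp1-hi (SE 0.15, 3.14-fold lower, limma adjusted p = 0.000364) and by 1.46 in Blimp1-int (SE 0.13, 2.76-fold lower, adjusted p = 0.000272). Both probes exceeded background on all 4 arrays, so that these falls are measured on both sides and A1 signal was still detected in plasma cells.

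These were the only member probes called against naive cells: 2 of 6 tested were called lower and none higher in each plasma cell group. Both are A1 probes whose binding to the other copies was not determined, so they may not be 2 separate signals. Over all 9005 probes, 6.53% were called lower and 6.33% higher in Blimp1-hi, and 5.93% lower and 6.52% higher in Blimp1-int. In the ranking of all tested probes by difference from the lowest up, Bcl2a1b stood at position 111 and Bcl2a1d at 216 in Blimp1-hi, and at 140 and 275 in Blimp1-int. Both comparisons use the same naive array, so that their likeness is no independent repeat.

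The remaining A1 probes behaved otherwise. Bcl2a1a read 8.77 in naive cells, 8.64 on the Blimp1-hi array, and 8.73 and 8.79 on the Blimp1-int arrays, all within 0.15 of each other and close to the background level. The Blimp1-int values lie on both sides of the naive value, and the Blimp1-hi value was below background. Its differences from naive cells, at least 1.07-fold lower in Blimp1-hi (limma adjusted p = 0.353) and -0.01 in Blimp1-int (SE 0.09, adjusted p = 0.952), did not pass the test. A bound such as this 1.07-fold takes no account of measurement error and shows no fall where the test was not passed. Bcl2a1c read 8.23 in naive cells, 8.13 on the Blimp1-hi array, and 8.14 and 8.18 on the Blimp1-int arrays, below background throughout. Whether the Bcl2a1a transcript is scarce or its probe binds poorly cannot be told from 1 probe, since levels of different probes are not comparable.

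The genes with the pattern most like the A1 probes were found by the Euclidean distance between mean-centred log2 values over the 4 arrays, among 2641 named genes. For Bcl2a1b these were Lpxn (distance 0.15), Napsa (0.202) and Rps9 (0.21). Lpxn, which encodes the adaptor leupaxin, read 11.00 in naive cells, 9.09 on the Blimp1-hi array, and 9.08 and 9.22 on the Blimp1-int arrays. For Bcl2a1d they were Nrros (0.0824), Cdk19 (0.0964) and Sorl1 (0.105). Nrros, a transmembrane protein of leukocytes, read 11.31 in naive cells, 9.75 on the Blimp1-hi array, and 9.82 and 10.01 on the Blimp1-int arrays. Neither probe had the other among its nearest 3 genes. The values were centred but not scaled, so a difference in the size of the fall alone sets probes apart.

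Bcl2l2, the gene of BCL-W, rose in Blimp1-hi against naive cells, by adjusted p alone. Its brighter probe read 8.82 in naive cells, 9.45 on the Blimp1-hi array, and 9.02 and 9.19 on the Blimp1-int arrays (9.10 ± 0.11, SD, n = 2). The naive value was the lowest and the Blimp1-hi value the highest, and the Blimp1-int values stood between them. The rise in Blimp1-hi was 0.63 (SE 0.12, 1.55-fold, limma adjusted p = 0.00823), under the 2-fold threshold. In Blimp1-int the difference of 0.28 (SE 0.11, adjusted p = 0.0686) did not pass, nor did the step from Blimp1-int to Blimp1-hi (0.35, SE 0.11, adjusted p = 0.125). The dimmer Bcl2l2 probe never exceeded background, at 8.33 on the naive array, 8.24 on that of Blimp1-hi, and 8.26 and 8.37 on those of Blimp1-int, and says nothing about this order.

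**Figure D2:**
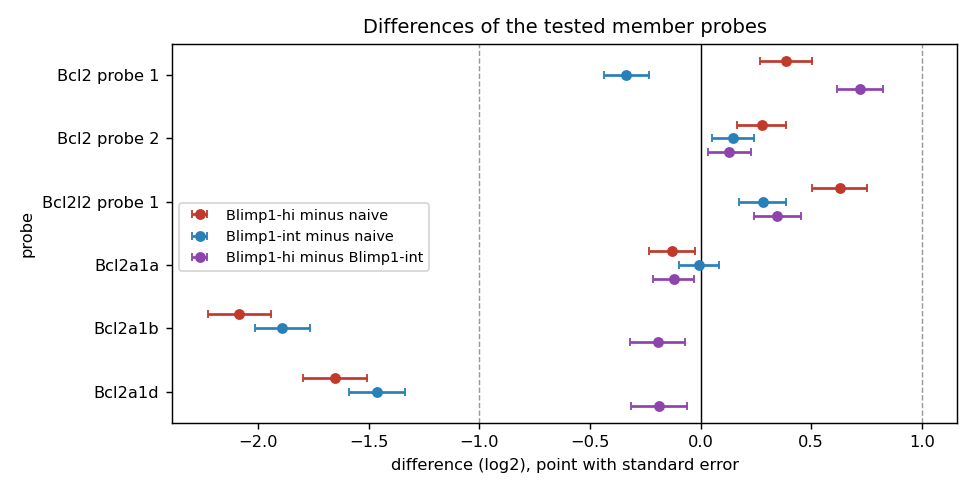
Log2 differences (x axis) of the 6 tested member probes (y axis) in the 3 comparisons, as points with limma's standard error; dashed lines mark a 2-fold difference. Bcl2a1b and Bcl2a1d lie left of the -1 line against naive cells in both plasma cell groups, and Bcl2 probe 1 lies on opposite sides of 0 in Blimp1-hi (0.39) and Blimp1-int (-0.34).

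Bcl2 differed between the plasma cell groups by adjusted p alone, and by 1 of its 2 probes. The brighter Bcl2 probe read 8.90 in naive cells, 9.29 on the Blimp1-hi array, and 8.50 and 8.64 on the Blimp1-int arrays (8.57 ± 0.10, SD, n = 2). Blimp1-hi was the highest array, naive cells came next, and both Blimp1-int arrays were below background. Against naive cells the probe was higher in Blimp1-hi by 0.39 (SE 0.12, 1.31-fold, limma adjusted p = 0.0398) and lower in Blimp1-int (-0.34, SE 0.10, at least 1.18-fold, adjusted p = 0.0358). Between the plasma cell groups the difference was 0.72 (SE 0.10, at least 1.54-fold higher in Blimp1-hi, adjusted p = 0.0184), above which lay only the highest few percent of all probes (percentile 98). The other Bcl2 probe did not bear out this pattern. It read 8.40 in naive cells, 8.67 on the Blimp1-hi array, and 8.50 and 8.59 on the Blimp1-int arrays, above background on the Blimp1-hi array only. None of its differences passed by limma: the Blimp1-hi value was at least 1.01-fold above that of naive cells (adjusted p = 0.0845) and of Blimp1-int (adjusted p = 0.469). The Blimp1-int minus naive difference of 0.15 (adjusted p = 0.243), opposite in sign to the brighter probe, lay below background on both sides. With the mean of both probes the difference between plasma cell groups was 0.43 (adjusted p = 0.0392), and that between Blimp1-int and naive cells was -0.10 (adjusted p = 0.454). Apoe, a macrophage marker, was also higher in Blimp1-hi, at 9.91 against 8.76 and 8.97 in Blimp1-int (difference 1.05, SE 0.12, adjusted p = 0.00917) and 9.21 in naive cells. Vcam1, the other macrophage marker above background on any array, was not higher there. It read 8.46 in Blimp1-hi against 8.44 and 8.99 in Blimp1-int (difference -0.25, limma adjusted p = 0.534). The remaining macrophage markers with a named probe were below background on all arrays. Any part of macrophage RNA in the Bcl2 difference was not tested.

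No member was called between Blimp1-hi and Blimp1-int, where 1.28% of all probes were called in either direction. By adjusted p alone 1 of 6 member probes, that of Bcl2, was higher in Blimp1-hi, against 2.84% of all probes, and none was lower, against 3.26%. Bcl2a1b differed by -0.19 (SE 0.12, limma adjusted p = 0.407) and Bcl2a1d by -0.19 (SE 0.13, adjusted p = 0.432). For both probes the Blimp1-hi value lay below both Blimp1-int values, and a p that misses the threshold does not show that the groups are alike. By adjusted p alone against naive cells, 2 member probes were higher and 2 lower in Blimp1-hi, where 19.9% of all probes were higher and 26.4% lower. In Blimp1-int none was higher and 3 were lower, where the shares over all probes were 23.8% and 28.0%.

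Bcl2l1, the gene of BCL-XL, gave no usable signal. Its probes read 8.33 and 8.17 in naive cells, 8.45 and 8.31 in Blimp1-hi, 8.14 and 8.15 in the first Blimp1-int replicate and 8.18 and 8.20 in the second. Over the 4 member probes that were below background on every array, values ran from 8.13 to 8.45. At this signal over background a change in Bcl2l1 or Bcl2a1c was not detectable, which is not the same as absence.

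Other parts of the pathway were read from 11 lists of cell death genes, 90 genes in all, of which 35 had a named probe and 20 were tested. In Blimp1-hi 2 of the 20 were called lower and none higher, with a median difference of -0.21. The median over all 2641 tested named genes, 1 probe each, was -0.05. In Blimp1-int 2 were called lower and none higher, with a median of -0.12 against 0.02 over the named genes. These counts stand beside 6.53% of all probes called lower and 6.33% higher in Blimp1-hi, and 5.93% and 6.52% in Blimp1-int. The called genes were Cd40 and Map3k14, both of the NF-kB list, of which 4 of 13 genes were tested. Genes that open the mitochondrion or activate the openers were poorly covered. Of 3 BAX and BAK effectors only Bok had a named probe, and of 10 BH3-only genes only Bmf and Pmaip1 (the gene of NOXA), all below background on all arrays. No tested gene came from the BAFF and APRIL list either: the receptor gene Tnfrsf13b and the ligand genes Tnfsf13 and Tnfsf13b were below background. Other genes below background on all arrays were Apaf1, Xiap, Cflar, Dffa, Birc6, Rel, Cdkn1a, Tnfrsf10b and Bcl2l14, which makes 15 in all with values of 7.88 to 8.67.

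NF-kB factors drive transcription of A1 in B cells, and CD40 is a receptor upstream of them. Cd40 read 10.18 in naive cells and was below background on every plasma cell array (8.41 for Blimp1-hi, 8.50 and 8.43 for Blimp1-int). By its brighter probe Cd40 was at least 2.83-fold lower in Blimp1-hi and at least 2.85-fold in Blimp1-int (limma adjusted p = 8.33e-05 and 4.64e-05). Another Cd40 probe was below background on all 4 arrays. Map3k14, which encodes the NF-kB inducing kinase, read 9.71 in naive cells, 8.68 on the Blimp1-hi array, and 8.58 and 8.54 on the Blimp1-int arrays. Its difference in Blimp1-hi was -1.03 (SE 0.11, adjusted p = 0.000662), and in Blimp1-int it was at least 2.06-fold lower (adjusted p = 0.000191). Ikbkb, a catalytic subunit of the IkB kinase, was at least 1.58-fold lower in Blimp1-hi and 1.59-fold in Blimp1-int, passing by adjusted p alone, while Ikbkg, the regulatory subunit, stayed near background and did not pass (adjusted p = 0.722 and 0.894). Spib, the gene of Spi-B and a naive B cell marker, read 12.94 in naive cells, 8.43 on the Blimp1-hi array, and 8.46 and 8.43 on the Blimp1-int arrays, at least 19.3-fold lower in Blimp1-hi. The part of these genes in the A1 fall was not tested.

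**Figure D3:**
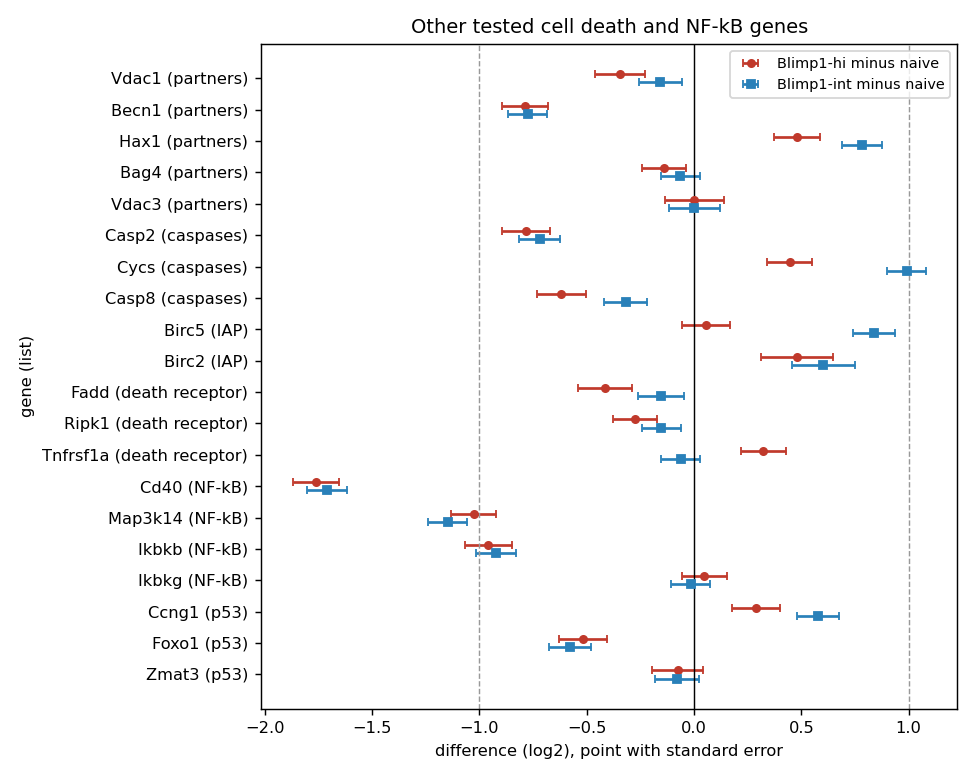
Log2 differences from naive cells (x axis) of the 20 tested genes of the cell death and NF-kB lists (y axis, list in brackets) in Blimp1-hi (circles) and Blimp1-int (squares), with limma's standard error; dashed lines mark 2-fold. Cd40 and Map3k14 lie beyond the -1 line in both groups, and Cycs and Birc5, each by its brightest probe, lie further right in Blimp1-int than in Blimp1-hi.

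Of 13 listed apoptosome and caspase genes 3 were tested. Cycs, which encodes cytochrome c, read 9.27 on the naive array, 9.71 on that of Blimp1-hi, and 10.26 in each Blimp1-int replicate. In Blimp1-hi it exceeded naive cells by 0.45 (SE 0.10, limma adjusted p = 0.0156). In Blimp1-int it exceeded them by 0.99 (SE 0.09, limma adjusted p = 0.000331). It was lower in Blimp1-hi than in Blimp1-int by a difference of -0.54 (adjusted p = 0.0275). Casp2 and Casp8 passed by adjusted p alone in the opposite direction, with differences from naive cells of -0.78 and -0.62 in Blimp1-hi and -0.72 and -0.32 in Blimp1-int.

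Among the inhibitors of apoptosis 2 of 6 were tested. Birc5, which encodes survivin and is also a gene of mitosis, read 8.67 in naive cells, 8.72 on the Blimp1-hi array, and 9.56 and 9.45 on the Blimp1-int arrays. By this probe the Blimp1-int value exceeded the naive one by 0.84 (SE 0.10, limma adjusted p = 0.000879), and Blimp1-hi was lower than Blimp1-int (-0.79, SE 0.10, adjusted p = 0.0127). Another Birc5 probe read 8.67 in naive cells, 8.61 on the Blimp1-hi array, and 8.89 and 8.81 on the Blimp1-int arrays, and passed in neither comparison (0.18, adjusted p = 0.156, and at least 1.13-fold lower, adjusted p = 0.193). The remaining Birc5 probe was below background on all 4 arrays. Birc2, the gene of cIAP1, exceeded its naive level at least 1.31-fold in Blimp1-int (limma adjusted p = 0.016) and did not pass in Blimp1-hi (at least 1.20-fold higher, adjusted p = 0.0598). Its other probe was below background on all 4 arrays.

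Partners of BCL-2 proteins showed no call in 5 tested genes of 14. Becn1, which encodes Beclin 1, an autophagy protein that BCL-2 binds, read 10.93 in naive cells, 10.15 on the Blimp1-hi array, and 10.13 and 10.19 on the Blimp1-int arrays, and fell by 0.79 and 0.78 (limma adjusted p = 0.00196 and 0.000969). Hax1, a mitochondrial protein, rose by 0.48 and 0.78 (adjusted p = 0.0132 and 0.000956), and the channel gene Vdac1 did not pass (-0.35 and -0.16, adjusted p = 0.0532 and 0.236). Bag4 and Vdac3 did not pass either (adjusted p = 0.304 and 0.992 in Blimp1-hi, 0.582 and 0.997 in Blimp1-int).

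No gene of the death receptor list or of the p53 list was called. Of 3 tested death receptor genes, the brighter probe of Fadd was at least 1.28-fold lower (adjusted p = 0.0375) and Tnfrsf1a at least 1.19-fold higher (adjusted p = 0.0494) in Blimp1-hi by limma, and Ripk1 did not pass (at least 1.14-fold lower, adjusted p = 0.0743). The other Fadd probe, above background on all 4 arrays, did not pass and differed by -0.15 in Blimp1-hi (SE 0.10, 1.11-fold, adjusted p = 0.286). None of the 3 passed in Blimp1-int. Of the p53 list 3 genes were tested. Foxo1, placed on that list and a transcription factor of naive lymphocytes, fell by 0.52 in Blimp1-hi and 0.58 in Blimp1-int (limma adjusted p = 0.0126 and 0.00412). Ccng1 was at least 1.36-fold higher in Blimp1-int (adjusted p = 0.00385) and did not pass in Blimp1-hi (at least 1.12-fold higher, adjusted p = 0.0777), and Zmat3 passed in neither.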

How the data were processed

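The authors deposited log2 expression values for 4 single-colour Illumina arrays, processed in lumi (per the submitters' processing notes, with no version). Sorted, the values are almost identical between arrays (median 8.36), which is what quantile normalization produces. Whether the log2 scale is plain or variance-stabilized, and the background step, are not given in the sources used here; on a variance-stabilized scale folds of dim genes are understated. A deposited table of raw signals has 8 columns whose names match no sample, and none was used. Probes were named by matching 9832 of 11897 numbers in the identifiers to NCBI genes (RefSeq table, GRCm38.p6), so each name rests on that number. Background replaced the detection p-values, which no sample could be given.

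One limma 3.58.1 model (in R 4.3.3, two-sided, default eBayes prior) with 3 groups was fitted to all 9005 probes above background on at least 1 array, with 1 residual degree of freedom (prior 5.04 degrees of freedom, prior standard deviation 0.0802). For a gene below background in 1 group a bound is given, against its own value or the lowest signal that exceeded background there, whichever was higher. The words "at least" refer to this bound, which takes no account of measurement error. A gene of a list was represented by its probe with the highest mean. The steps were tested on simulated data. Named genes are all member probes, all tested genes of the cell death lists, called or defining markers, and for members spanning at least 1 log2 unit the 3 nearest genes. The members and lists were chosen with earlier results of these data known. Promoters were aligned with Biopython 1.88. One gene of the cell death lists is not reported here and was left out of their counts.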

Additional observations from a re-analysis of the deposited data

Results flagged for a closer look

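Differences from naive cells were not alike in Blimp1-hi and Blimp1-int for 1 of 5 tested member genes, 2 of 20 other tested cell death genes and 4 marker genes. The tested markers were 9 of plasma cells, 8 of naive B cells, 2 of macrophages and 1 of erythroid cells. These genes were selected by adjusted p, with no fold threshold, in the test of Blimp1-hi against Blimp1-int itself. Of these, Igha and Apoe also passed the 2-fold threshold, and the others did not. By adjusted p alone, 2.84% of all 9005 probes were higher and 3.26% lower in Blimp1-hi than in Blimp1-int. The brighter Bcl2 probe differed by 0.72 (limma adjusted p = 0.0184). The brightest Birc5 probe differed by -0.79 (adjusted p = 0.0127) and Cycs by -0.54 (adjusted p = 0.0275). Among the markers Igha, the IgA constant region, differed by 1.68 (adjusted p = 0.00919), Apoe by 1.05 (adjusted p = 0.00917), Jchain, the joining chain of secreted IgA and IgM, by 0.61 (adjusted p = 0.0363) and Edem2 by -0.53 (adjusted p = 0.0493). Other probes of Bcl2 and Birc5 did not pass by limma (adjusted p = 0.469 and 0.193). Each rests on 1 Blimp1-hi array against 2 Blimp1-int arrays, and the cause was not tested.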

How the results depend on the processing

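The number of member genes called against naive cells, 2 in each plasma cell group, and the 0 between the plasma cell groups held under all alternatives run that kept the fold threshold: no filter, above background on 2 arrays, a cutoff of 2 standard deviations, 75th percentile scaling, cyclic loess, quantile normalization without immunoglobulin probes, 1 probe per gene, the mean of a gene's probes, a trended prior, and leaving out each Blimp1-int replicate (values with no test, 2, 2 and 0 past 2-fold). By adjusted p alone 4 member genes passed in Blimp1-hi and 1 between the plasma cell groups. Of 153 recomputed member differences with a test, 152 kept their direction and call by adjusted p and fold, and of 36 with no test 1 changed direction; Bcl2a1a in Blimp1-int turned from -0.01 to 0.007 without immunoglobulin probes and to between -0.036 and 0.022 when leaving out a Blimp1-int replicate. Bcl2a1b in Blimp1-hi ran from -2.11 to -1.83 and Bcl2a1d from -1.65 to -1.52. Only cyclic loess and quantile normalization without immunoglobulin probes moved these 2 differences at the precision given. Leaving out a Blimp1-int replicate cannot change a difference between Blimp1-hi and naive cells. The filters, the choice of probe and the trended prior could change only the p-values of these 2 probes. Most of the kept directions and calls above are therefore no separate check of the differences. Adjusted p for the Bcl2 difference between plasma cell groups ran up to 0.0392, over 9 alternatives with a test. Bcl2l2 in Blimp1-int passed the adjusted p in 4 of 9. Over the whole array 1158, 1121 and 115 probes were called in the 3 comparisons, against 321, 309 and 18 with 1 probe per gene, which tests 2641 features, 308, 292 and 16 with the mean of probes, and 4165, 4669 and 550 by adjusted p alone; 55 were called between plasma cell groups without immunoglobulin probes. No paired analysis was possible because the groups share fewer than 2 replicate numbers. The number of arrays and signal near background limit Bcl2, Bcl2l1, Bcl2a1a and Bcl2a1c.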
